A study of Mus musculus with 4 samples.

Results

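The NuRD complex genes described here are 10 mouse genes, Chd3, Chd4, Mbd2, Mbd3, Mta1, Mta2, Mta3, Gatad2a, Gatad2b and Rbbp4. They were taken as every probe set annotated with exactly 1 symbol, where that symbol was one of the 10, which gave 27 of the 45037 non-control probe sets on the arrays. All 10 genes had at least 1 probe set, and 3 of them (Chd3, Mbd3 and Mta2) had only 1. The genes were chosen as subunits of the complex and not for their values in these samples, although earlier results of these data were known.

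Expression was measured in C2C12 cells, an immortalised mouse myoblast line that fuses into myotubes when serum is lowered. Both groups carried a stably selected plasmid under hygromycin B, which encoded a non-targeting short hairpin RNA in shControl (2 arrays) and a hairpin against LSD1 in shLSD1 (2 arrays). Cells of both groups were grown in DMEM with 25 mM glucose and 10% fetal bovine serum, moved to DMEM with 25 mM glucose and 2% horse serum, and collected 48 hours after induction. The labels name 1 hairpin and 1 stable selection per group, so the hairpin and the selection cannot be told apart, and they do not say whether the 2 arrays of a group come from separate cultures. The p-values therefore rest on array-to-array spread that may be technical.

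NuRD couples an ATP-driven nucleosome remodeller to a histone deacetylase and lowers transcription at many of the sites it occupies. Its remodeller is Chd3 or Chd4, its methyl-CpG-binding-domain subunit is Mbd2 or Mbd3, and it is built on Mta scaffold proteins that hold Hdac1 and Hdac2, on the zinc-finger proteins Gatad2a and Gatad2b, and on the histone-binding proteins Rbbp4 and Rbbp7. LSD1, the histone H3 demethylase encoded by Kdm1a, can associate with NuRD through the Mta proteins. In skeletal and cardiac muscle, Chd4-containing NuRD is known for keeping the genes of the other striated muscle silent.

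The arrays gave a MAS5 signal per probe set, with a median between 67.3 and 69.7, and their number limits the precision. Kdm1a had a signal of 4603 and 4588 on the shControl arrays and 922 and 1034 on the shLSD1 arrays, a fall to 21.3% of the control level (log2 fold change -2.23, SE 0.07, n = 2 and 2; limma adjusted p = 9.32e-06). Of 10 muscle markers used to check the labelled cell type, 10 were above the signal filter described below, 0 rose and 7 fell in shLSD1. Over all genes, each counted through 1 tested probe set as the markers were, 7.91% rose and 6.38% fell. Of 7 measured proliferation markers 5 rose and 0 fell, a count that was 0 without shControl replicate 1 and 0 without shControl replicate 2. In the fit with no intensity trend, described below, 1 muscle marker fell and 0 proliferation markers rose. The summed signal of the muscle markers ran from 145840 to 146904 in shControl and from 103660 to 114228 in shLSD1, and that of the proliferation markers from 19150 to 19174 and from 22766 to 23001. Few markers of other cell types were bright enough for a test: 0 of 3 measured adipocyte markers, 1 of 3 osteoblast, 2 of 5 leukocyte, 0 of 4 endothelial and 2 of 5 epithelial markers passed the filter. Of those tested, only the epithelial cadherin gene Cdh1 changed, with signals of 60.1 and 51.9 in shControl and 153 and 139 in shLSD1 (limma adjusted p = 9.78e-03), a call lost without shControl replicate 2. The summed signals in shControl and shLSD1 were 21.7 to 47.1 and 38.6 to 53.0 for adipocyte markers, 115 to 153 and 96.9 to 150.1 for osteoblast, 591 to 631 and 622 to 661 for leukocyte, 123 to 125 and 141 to 192 for endothelial, and 176 to 208 and 311 to 327 for epithelial markers. The part of these markers in the NuRD values was not tested. In a culture, fewer cells of a type and less RNA per cell cannot be told apart.

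Most NuRD transcripts measured close to their control level when LSD1 was depleted, and 2 genes held a probe set that passed the test. Chd3, one of the alternative remodeller ATPases, fell to 70.0% of control. A single Rbbp4 probe set of 4 rose 1.41-fold. No probe set of Chd4, Mbd2, Mbd3, Mta1, Mta2, Mta3, Gatad2a or Gatad2b passed. The test was limma on log2 signal with a Benjamini-Hochberg adjusted p under 0.05, over the 22518 probe sets whose mean log2 signal was above the median of 6.03, a signal of 65.4. Of the 27 NuRD probe sets, 25 were above this filter, and all 10 genes had at least 1 there. Among the 25, 1 rose and 1 fell, which is 8.0% called. Over all tested probe sets 11.3% were called, 6.2% having risen and 5.06% having fallen. At this setting 2 called probe sets of 25 is therefore no more than the background. With 1 probe set per gene, 2 of the 10 genes were called, beside 15.3% of all genes, and this difference was not tested. Other settings also moved the background, as given below. The alternative that ended both calls was the fit without an intensity trend in the variance, under which only 212 of all 22518 probe sets passed and the limma adjusted p was 0.0735 for Chd3 and 0.0993 for the Rbbp4 probe set.

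**Figure D1:**
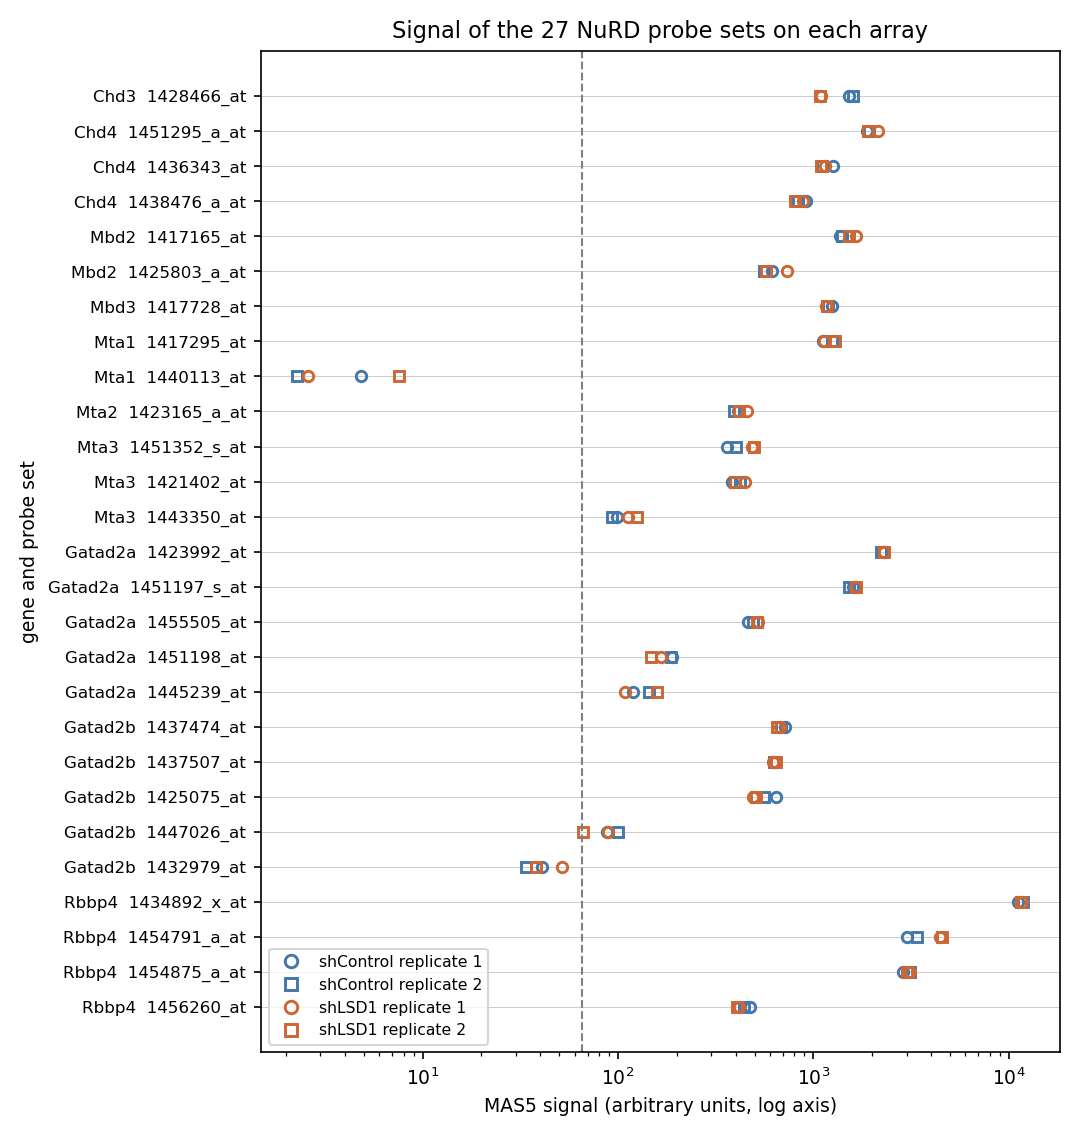
MAS5 signal (x axis, logarithmic, arbitrary units) of each of the 27 NuRD probe sets (y axis) on the 4 arrays, with blue for shControl, orange for shLSD1, circles for replicate 1 and squares for replicate 2. The dashed line is the signal of 65.4 that corresponds to the filter on mean log2 signal, and the groups are visibly apart for Chd3 and for the Rbbp4 probe set 1454791_a_at.

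The changes were small. The median log2 fold change of the 25 tested NuRD probe sets was 0.03, against 0.00 over all 22518 tested probe sets, with 14 values above 0 and 11 below. The values ran from -0.52 to 0.50. The median absolute log2 fold change was 0.085 for the NuRD probe sets and 0.157 for all tested probe sets, and 13 of the 25 lay within 0.1 of no change, as did 34.9% of all. The median standard error was 0.09 for the NuRD probe sets and 0.12 for all. The NuRD probe sets were not matched to the rest in signal, and the part of signal in these differences was not tested. For all 25 the 95% interval of the log2 fold change lay within 1 of no change, and the bounds farthest from 0 were -0.91 and 0.81. For 17 of the 25 it lay within 0.5. Neither a doubling nor a halving is therefore inside the interval of any tested NuRD probe set, while changes of the size seen for Chd3 stay inside the interval of some that were not called. The shLSD1 and shControl signals did not overlap for 14 of the 25, or 56%, beside 55.6% of all tested probe sets, which is the background. An unadjusted limma p was under 0.05 for 5 of the 25, and for 26.2% of all tested probe sets.

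**Figure D2:**
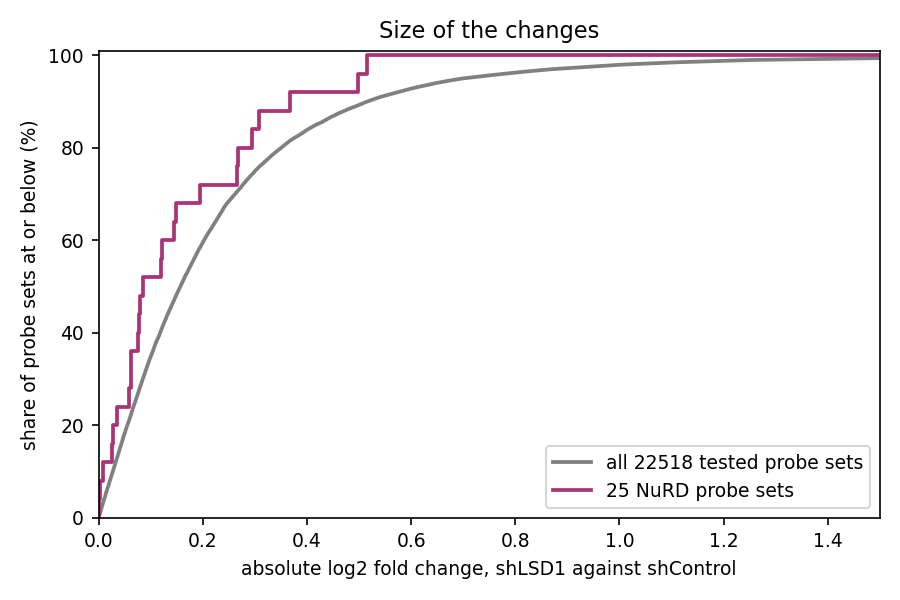
Cumulative share of probe sets (y axis, percent) at or below a given absolute log2 fold change between shLSD1 and shControl (x axis), for the 25 tested NuRD probe sets (purple steps) and all 22518 tested probe sets (grey line). The NuRD steps reach 100% at the Chd3 value of 0.52, and the medians are 0.085 and 0.157.

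The remodeller genes were measured by 1 probe set for Chd3 and 3 for Chd4. The Chd3 signal was 1519 and 1594 on the shControl arrays and 1094 and 1084 on the shLSD1 arrays. Both shLSD1 values lay below both shControl values, and the SD was 53.2 around a shControl mean of 1557 and 7.11 around an shLSD1 mean of 1089. The log2 fold change was -0.52 (SE 0.07, 95% interval -0.68 to -0.35, n = 2 and 2; limma adjusted p = 2.93e-03). It stayed between -0.55 and -0.48 when each array was left out in turn, with a limma adjusted p of at most 0.0435.

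Chd4, the other remodeller ATPase, did not pass on any of its probe sets. The probe set 1451295_a_at gave 1889 and 1929 in shControl and 2139 and 1895 in shLSD1. The signals of 1436343_at were 1256 and 1111 against 1149 and 1092. Those of 1438476_a_at were 922 and 834 against 881 and 806. On all 3 the groups overlapped. The log2 fold changes were 0.08 (95% interval -0.09 to 0.25), -0.08 (-0.27 to 0.12) and -0.06 (-0.27 to 0.15), with limma adjusted p from 0.571 to 0.750. Chd5, the third member of this remodeller subfamily and known mainly from neural tissue and testis, gave 98.3 and 66.4 in shControl and 89.9 and 66.3 in shLSD1 (log2 fold change -0.07, SE 0.31, limma adjusted p = 0.924), close to the filter.

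The methyl-CpG-binding-domain subunits are alternatives, since a given NuRD particle holds Mbd2 or Mbd3. Mbd2, which binds methylated CpG, was higher in shLSD1 on both of its probe sets without passing the test. For 1417165_at the signals were 1373 and 1396 in shControl and 1650 and 1524 in shLSD1, so the groups did not overlap (log2 fold change 0.20, SE 0.07, 95% interval 0.03 to 0.36, limma adjusted p = 0.123). For 1425803_a_at they were 617 and 556 against 731 and 573, and the groups overlapped (0.14, SE 0.13, limma adjusted p = 0.544). Mbd3, whose domain has little preference for methylated CpG, gave 1252 and 1192 in shControl and 1160 and 1180 in shLSD1. Its groups lay just apart, at a log2 fold change of -0.06 (95% interval -0.23 to 0.10, limma adjusted p = 0.647).

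The Mta genes encode the scaffold that binds the deacetylases, and none of their tested probe sets passed. Mta1 gave 1122 and 1245 in shControl and 1133 and 1295 in shLSD1 on 1417295_at, with overlapping groups and a log2 fold change of 0.03 (95% interval -0.18 to 0.25, limma adjusted p = 0.858). A second Mta1 probe set, 1440113_at, was below the filter, with signals of 4.86, 2.28, 2.60 and 7.58 on shControl replicates 1 and 2 and shLSD1 replicates 1 and 2. Mta2 gave 411 and 393 in shControl and 459 and 417 in shLSD1, apart by less than the spread within shLSD1 (0.12, 95% interval -0.14 to 0.38, limma adjusted p = 0.562).

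Mta3 had a positive value on each of its 3 probe sets, and the size differed among them. On 1451352_s_at the signals were 360 and 404 in shControl and 484 and 499 in shLSD1. Both shLSD1 values were above both shControl values, at a log2 fold change of 0.37 (SE 0.11, 95% interval 0.10 to 0.63, limma adjusted p = 0.0790). It missed the threshold of 0.05 and would pass one of 0.10, at which 17.5% of all tested probe sets pass. The ending _s_at marks a probe set whose probes may match transcripts of more than 1 gene, and the share of such transcripts in its signal was not tested. On 1421402_at the signals were 385 and 422 against 447 and 395 and the groups overlapped (0.06, 95% interval -0.22 to 0.34). On the dim 1443350_at they were 99.1 and 92.9 against 113 and 125 (0.31, 95% interval -0.20 to 0.81, limma adjusted p = 0.434).

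Gatad2a and Gatad2b encode p66alpha and p66beta, which join the methyl-CpG-binding-domain subunit to the remodeller. Each had 5 probe sets, the most of any member, and 0 of the 9 that were tested passed limma's adjusted threshold, while 1, for Gatad2b, had an unadjusted p under 0.05. The brightest Gatad2a probe set, 1423992_at, gave 2285 and 2227 in shControl and 2309 and 2289 in shLSD1 (log2 fold change 0.03, 95% interval -0.11 to 0.16, limma adjusted p = 0.817). This is among the tightest intervals in the set. The probe sets 1451197_s_at and 1455505_at gave 0.08 and 0.12, and the dimmer 1451198_at and 1445239_at gave -0.27 and 0.00. The difference between the highest and lowest of these 5 was 0.38 (SE 0.20). These extremes were picked after their values were seen. The SE does not allow for that and treats the probe sets as independent, although they share the arrays.

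Gatad2b was negative on all 4 of its tested probe sets. On 1437507_at the value was near 0 and turned positive without shControl replicate 1 or shLSD1 replicate 1. The probe set 1425075_at gave 643 and 560 in shControl and 491 and 507 in shLSD1, with no overlap (log2 fold change -0.27, SE 0.11, 95% interval -0.51 to -0.02, limma adjusted p = 0.160). The brighter 1437474_at gave 719 and 681 against 671 and 653 (-0.08, 95% interval -0.28 to 0.13, limma adjusted p = 0.637). On 1437507_at the signals were 638 and 627 against 620 and 643, with overlap and a log2 fold change of 0.00 (95% interval -0.21 to 0.21). The dim 1447026_at measured -0.29 (95% interval -0.91 to 0.32). The probe set 1432979_at was below the filter, with signals of 40.9 and 34.0 in shControl and 51.9 and 38.0 in shLSD1.

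**Figure D3:**
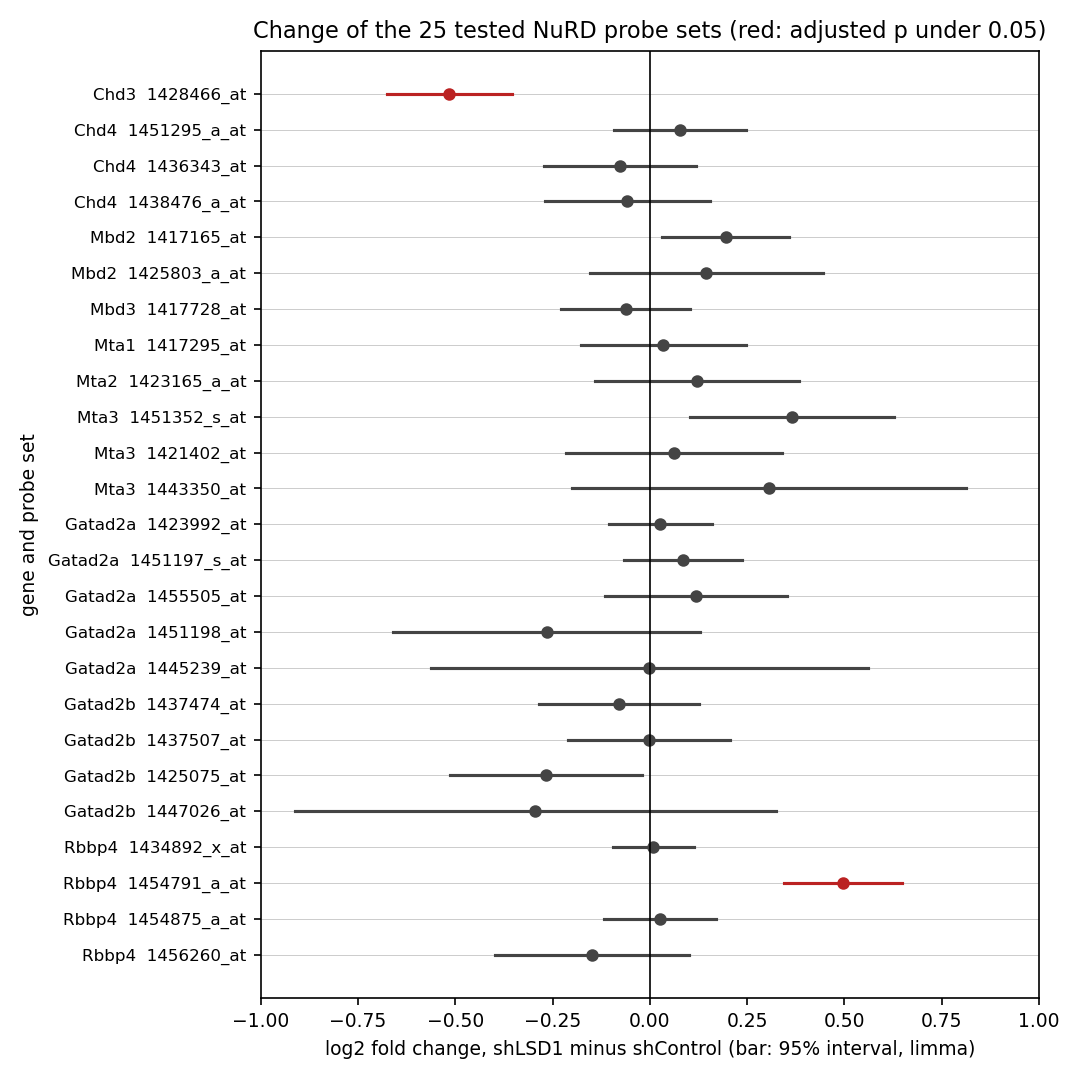
Log2 fold change, shLSD1 minus shControl (x axis), of the 25 tested NuRD probe sets (y axis), with points for the limma estimate and bars for its 95% interval. The 2 red points, Chd3 at -0.52 and Rbbp4 1454791_a_at at 0.50, passed an adjusted p of 0.05, and no bar reaches 1 in either direction.

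Rbbp4, a histone-binding protein that NuRD shares with the Sin3 deacetylase complex, with PRC2 and with the chromatin assembly factor CAF-1, had 4 tested probe sets that did not move together. On 1454791_a_at the signals were 3009 and 3386 in shControl and 4457 and 4552 in shLSD1. Both shLSD1 signals were above both shControl signals, at a log2 fold change of 0.50 (SE 0.07, 95% interval 0.35 to 0.65, n = 2 and 2; limma adjusted p = 2.55e-03). Leaving out each array in turn gave 0.41 to 0.58, with a limma adjusted p of at most 0.0309.

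The other Rbbp4 probe sets did not pass. On 1434892_x_at, the brightest of the NuRD probe sets and of a type in which some probes may cross-hybridise, the signals were 11185 and 11890 in shControl and 11681 and 11530 in shLSD1 (log2 fold change 0.01, 95% interval -0.10 to 0.11). On 1454875_a_at they were 2889 and 3140 against 3137 and 2998 (0.03, 95% interval -0.12 to 0.17). On 1456260_at they were 473 and 441 against 416 and 408, a value in the other direction (-0.15, 95% interval -0.40 to 0.10, limma adjusted p = 0.445). The difference between the highest and the lowest of the 4 was 0.65 (SE 0.13). It was the largest among the 6 NuRD genes with more than 1 tested probe set. For the others it ran from 0.05 (Mbd2) to 0.38 (Gatad2a). The extremes were picked after their values were seen, and such a difference tends to grow with the number of probe sets. Its SE does not allow for this picking and treats the probe sets as independent, although they share the arrays. The size of this difference was therefore not tested. With the probe sets of each gene averaged, Rbbp4 measured 0.10 (limma adjusted p = 0.321) and its call was lost. The ending _a_at marks probes shared by several transcripts of 1 gene, and which transcripts each probe set reads was not analysed here. Of the 7 measured proliferation markers, 5 rose in the same arrays, among them Cdk1 (0.32), Ccna2 (0.37) and Pcna (0.21), and leaving out either shControl array ended each of these calls. Their part in the Rbbp4 value was not tested.

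Members that occupy the same position were also compared as a balance, the difference of their log2 signals within an array, which removes any factor common to an array. Only the shift of this difference between groups is read, since the level of one probe set cannot be set against that of another. For Chd3 minus Chd4 (1451295_a_at) the difference was -0.31 and -0.27 on the shControl arrays and -0.97 and -0.81 on the shLSD1 arrays, a shift of -0.59 (SE 0.08 from the within-array differences, on 2 residual degrees of freedom, as for the other pairs). Most of this shift is the Chd3 change of -0.52 already given. The Chd4 probe set used measured 0.08, and the others for that gene measured -0.08 and -0.06. Balances with those were not computed. For Mbd2 (1417165_at) minus Mbd3 the difference was 0.13 and 0.23 against 0.51 and 0.37, a shift of 0.26 (SE 0.08). In both pairs the groups were apart. They were also apart for Gatad2a (1423992_at) minus Gatad2b (1437474_at), at 1.67 and 1.71 against 1.78 and 1.81, a smaller shift of 0.11 (SE 0.02). From the limma errors of the 2 probe sets the SE of that shift was 0.11, as large as the shift. It was 0.10 for each of the 2 pairs before. Groups did not overlap for 55.6% of all tested probe sets, and the share over all pairs of probe sets was not computed. The 3 pairs among Mta1, Mta2 and Mta3 (1421402_at) shifted by -0.09 (SE 0.20), -0.03 (SE 0.19) and 0.06 (SE 0.10), all within their errors and each of changed sign when 1 array was left out. This Mta3 probe set had the lowest log2 fold change of the 3 for that gene, 0.06 beside 0.37 and 0.31. Balances with the other Mta3 probe sets were not computed, so the small Mta shifts hold for this choice only. An exact two-sided permutation test over arrays gave p = 0.333 for the first 3 pairs, the smallest value that 2 arrays against 2 allow, and 0.667 after Benjamini-Hochberg adjustment over the 6 pairs, so this permutation test could not have called any shift at this number of arrays.

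**Figure D4:**
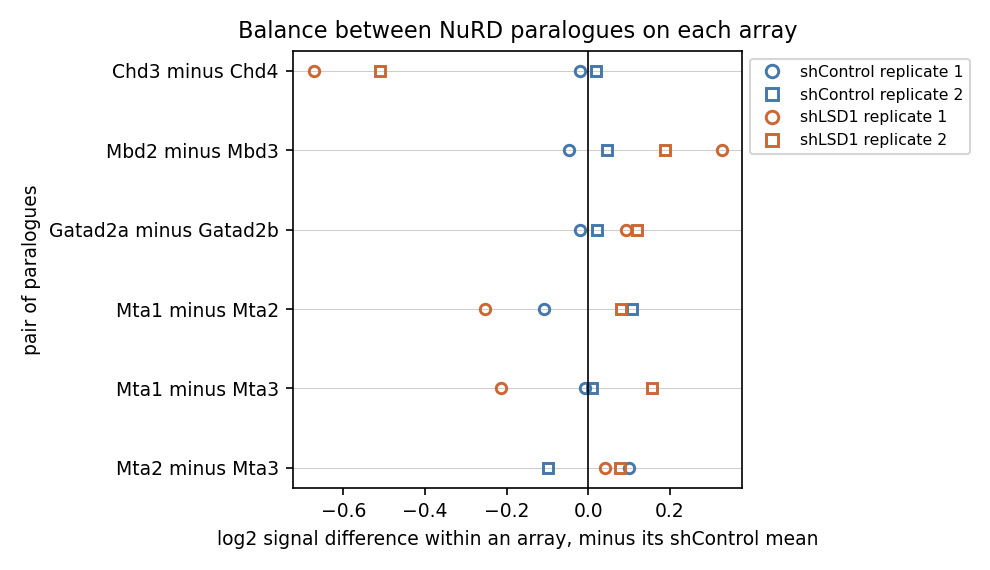
Difference of log2 signal between 2 NuRD paralogues within an array, minus the mean of that difference over the shControl arrays (x axis), for the 6 pairs (y axis), with blue for shControl, orange for shLSD1, circles for replicate 1 and squares for replicate 2. The shLSD1 points lie apart from the shControl points for Chd3 minus Chd4, Mbd2 minus Mbd3 and Gatad2a minus Gatad2b, and are mixed with or on both sides of them for the 3 Mta pairs.

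The remaining NuRD subunits also measured near their control level. Of 5 genes, each through its chosen probe set, 0 rose and 0 fell by limma over all probe sets. For 0 of these 5 the unadjusted limma p was under 0.05. Of their 9 tested probe sets 0 had a limma adjusted p under 0.05, the lowest being 0.120. Over all genes counted through 1 probe set 14.3% were called, and over all tested probe sets 11.3%. An unadjusted limma p was under 0.05 for 26.2% of all tested probe sets. With so few subunits, counts of 0 are near these shares. The deacetylase genes Hdac1 and Hdac2 gave 0.13 (SE 0.08, limma adjusted p = 0.378) and -0.01 (SE 0.08, limma adjusted p = 0.965). A second Hdac2 probe set, 1445684_s_at, gave 5204 and 5171 in shControl and 4759 and 4714 in shLSD1, apart by more than the spread within groups but not past the threshold (-0.13, SE 0.05, limma adjusted p = 0.120). Rbbp7, the paralogue of Rbbp4, gave 10610 and 11304 against 10409 and 10201 (-0.09, SE 0.05, limma adjusted p = 0.286). Cdk2ap1, a small subunit of the complex, gave -0.06 (SE 0.05, limma adjusted p = 0.434).

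Related chromatin genes were each counted through 1 probe set. Of all genes counted in this way 14.3% were called, 7.91% having risen and 6.38% having fallen. Every call on a chosen probe set in these chromatin lists, other remodellers included, was a fall. The lists leave out the NuRD members, among them Rbbp4, whose chosen probe set rose. This common direction was remarked on once the values had been seen. Among factors that recruit or accompany NuRD, 6 of 11 measured genes were tested, 0 rose and 1 fell, with a median log2 fold change of -0.01. The gene that fell was the repressor gene Bcl6 (-0.38, SE 0.07, limma adjusted p = 0.0131), which did not pass once either shControl array was left out. With probe sets averaged within each gene the count of this list turned to 1 risen and 0 fallen, the gene being Zfpm2, which encodes the cofactor FOG2. Zfpm2 measured 0.77 (SE 0.16, limma adjusted p = 0.0428) that way and 0.11 (SE 0.16, limma adjusted p = 0.715) on its chosen probe set. It was singled out once its values had been seen. Of 11 tested Sin3 complex genes, which share Hdac1, Hdac2 and Rbbp4 with NuRD as partners, 0 rose and 1 fell, with a median of 0.01. That gene, Sap30, measured -0.39 (SE 0.06, limma adjusted p = 5.93e-03) and likewise did not pass without shControl replicate 1 or 2. Of 8 tested PRC2 and CAF-1 genes, whose complexes also hold Rbbp4, 0 rose and 0 fell by limma and 0 had an unadjusted p under 0.05, with values from -0.14 to 0.30 and a median of -0.01.

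Among 11 tested genes for other ATP-driven remodellers, 0 rose and 3 fell, with a median of -0.10. Over all genes counted through 1 probe set, 7.91% rose and 6.38% fell. Smarca2, the BRM ATPase gene of the SWI/SNF complex, had the largest value at -0.96 (SE 0.14, limma adjusted p = 4.68e-03). Smarca5, the ISWI ATPase gene, fell by 0.34 and Chd9 by 0.45 on the log2 scale. Without shControl replicate 2 these 3 calls were lost, as was that of Chd9 without shControl replicate 1. Chd3 kept its call in both cases. Genes of cardiac muscle, a class that NuRD is known for keeping silent in skeletal muscle, were mostly too dim to test. Not all were dim in these cells. In shControl the signals were 26191 and 25967 for Actc1 and 25363 and 25754 for Tnnt2. The part of NuRD in these levels was not tested. Of 10 cardiac genes measured, 4 were tested, 0 rose and 2 fell. Those that fell were Actc1 (-0.55, SE 0.05, limma adjusted p = 4.77e-04) and Tnnt2 (-0.22, SE 0.05, limma adjusted p = 0.0287, not past the threshold without shControl replicate 1 or 2), which embryonic skeletal muscle also expresses. The cardiac troponin I gene Tnni3 lay in the other direction without passing, with signals of 37.6 and 66.8 in shControl and 84.9 and 108.6 in shLSD1 (0.94, SE 0.35, limma adjusted p = 0.134). It was singled out once its values had been seen. Without the intensity trend none of Bcl6, Sap30, Smarca2, Smarca5, Chd9, Actc1 and Tnnt2 passed, and with the probe sets of each gene averaged Bcl6, Smarca2, Chd9 and Tnnt2 did not.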

How the data were processed

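The authors deposited 1 linear signal intensity for every probe set, computed with MAS5 and Affymetrix Expression Console, per the submitters' processing notes (versions not given in the sources used here). Biotin-labelled RNA came from 250 ng of total RNA and cells grew under 750 µg/mL hygromycin B, per the labels' protocols. After trimming 2% at each end every array had a mean of 500.003, so each had been scaled by 1 factor, which does not equalise the arrays' distributions. Dim MAS5 signals are noisy after taking logs.

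Signals under 1 were set to 1 (503 to 704 probe sets per array) before log2. The annotation paired 34945 probe sets with 1 symbol, 932 with several and 9160 with none. The 64 control probe sets were left out. All 10 symbols matched the gene table of GRCm38.p6, used for names only. Groups were compared by limma 3.58.1 in R 4.3.3, with lmFit and a trended eBayes (8.26 total degrees of freedom). Tests were two-sided and adjusted by Benjamini-Hochberg over 22518 probe sets. A gene of another list counted through its brightest tested probe set, those ending in _s_at or _x_at being avoided where possible. Figures used matplotlib 3.10.9. The script was tested on simulated data.

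All members, Kdm1a, the other subunits and up to 3 called genes per further list are named, and markers by count. Members and lists were chosen with earlier results of these data known. Alternatives were leaving out each array, a replicate block, median centring, quantile normalization, log2(signal + 32), a stricter filter or none, robust or untrended variance, 1 probe set or the mean per gene, other thresholds, and dropping _s_at and _x_at probe sets.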

Additional observations from a re-analysis of the deposited data

How the results depend on the processing

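The counts of NuRD probe sets past the threshold, 1 risen and 1 fallen, were the same without each array, with both normalizations, log2(signal + 32), no filter, the stricter filter at a mean log2 signal of 8.91, robust variance, 1 probe set per gene, a threshold of 0.01 and without _s_at and _x_at probe sets. They were 0 and 0 without the intensity trend. With probe sets averaged within each gene 0 rose and 1 fell, and at a threshold of 0.10 2 rose and 1 fell. Unlike these counts, the share of all tested probe sets called moved. It was 3.45% with no filter, where 27 NuRD probe sets were tested, and 4.55% at a threshold of 0.01, with 25 tested. It was 17.4% with the stricter filter, with 17 tested, and 15.3% with 1 probe set per gene, with 10 tested. The relation of the NuRD counts to the background therefore depends on the setting. The replicate block also gave 1 risen and 1 fallen. It moved the count over all probe sets from 2535 to 3256, while same-numbered arrays deviated with a correlation of 0.00. This correlation would miss a batch that acts on some probe sets only. The labels do not say whether same-numbered arrays belong together, and this was not tested further. Kdm1a stayed between -2.37 and -2.15. The median over NuRD probe sets stayed between -0.0066 and 0.0532, so its sign is not settled.

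Uncalled values near 0 changed sign. Leaving out each array gave -0.010 to 0.164, -0.165 to 0.012 and -0.130 to 0.015 for Chd4 1451295_a_at, 1436343_at and 1438476_a_at, -0.031 to 0.321 for Mbd2 1425803_a_at, -0.062 to 0.131 for Mta1 1417295_at, -0.027 to 0.151 for Mta3 1421402_at, -0.274 to 0.272 for Gatad2a 1445239_at, -0.028 to 0.024 for Gatad2b 1437507_at, and -0.035 to 0.053 and -0.034 to 0.086 for Rbbp4 1434892_x_at and 1454875_a_at. The mean of probe sets gave -0.019 for Chd4 and -0.0070 for Gatad2a, log2(signal + 32) gave 0.0024 for Gatad2a 1445239_at, and median centring gave -0.012 for Rbbp4 1434892_x_at. The cause of these changes was not tested. The 6 paralogue balances kept their sign under quantile normalization and log2(signal + 32), and median centring cannot change a within-array difference. Leaving out each array, an alternative chosen after seeing the data, gave -0.253 to 0.080 for Mta1 minus Mta2, -0.213 to 0.158 for Mta1 minus Mta3 and -0.040 to 0.158 for Mta2 minus Mta3, while the other 3 balances kept their sign. Over all probe sets, leaving out shControl replicate 1 or 2 reduced the calls to 888 and 927. At signals near the filter the intervals are too wide to show a change the size of that of Chd3.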
